A study of Mus musculus with 12 samples.

Results

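The Myb, Myc and Max network was followed in pre-megakaryocyte/erythroid progenitors (PreMegE), the bone marrow cells that can still become either a megakaryocyte or an erythrocyte. The 10 genes were taken by their symbols: Myb, Mybl1, Mybl2, Myc, Mycn, Max, Mxi1, Mxd1, Mxd4 and Mnt, out of 41128 genes in the table of read counts. All 10 passed the filter on low counts in each comparison. The 12 polyadenylated RNA libraries, each a pool of 3 C57BL/6 mice aged 12 to 16 weeks, fell into 4 groups of 3. WT cells came from wild type mice and were not divided by a reporter. The P2- and P2+ cells came from Runx1 P1-GFP::P2-hCD4/+ mice, in which GFP reports the distal (P1) and human CD4 the proximal (P2) promoter of Runx1, and were sorted on hCD4. That allele leaves a single intact copy of Runx1, so P2- and P2+ differ from WT in genotype as well as in sorting, and these cannot be told apart. KO cells were homozygous for P1-GFP/GFP, which replaces the P1 product RUNX1C with GFP and leaves P2 intact. Counts of the Runx1 gene sum both promoters and so do not check the loss of RUNX1C. Runx1 stood at 369 CPM (a count scaled to library size) in WT, 211 in P2-, 631 in P2+ and 360 in KO (means, n = 3).

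MYB is a transcription factor of immature blood cells, and its relatives are A-MYB (Mybl1) and B-MYB (Mybl2), of which B-MYB works with the MuvB complex on genes of mitosis. MYC and N-MYC (Mycn) bind DNA as partners of MAX at the E-box and raise genes of ribosome making, nucleotide supply and growth. MXD1, MXI1, MXD4 and MNT compete for MAX and bring repressors to the same sites. Which partner is abundant is known to shift as progenitors leave division for differentiation.

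The libraries held between 10726098 and 14445026 counts (median 12284879), and 3 counts, the limit set for detection, came to between 0.208 and 0.28 CPM. Replicate 2 of P2- and of P2+ stood apart: 12 immediate early genes (Fos and the like, which respond within minutes to handling or signals) summed to 13430 CPM in the former and 8993 CPM in the latter, against at most 1268 CPM in any other library. The members' calls, the ratios, the places and the target counts were also computed without those libraries. The study's methods call the 3 libraries of a population biological replicates, and p-values measure the spread between these pools of mice. The paper reports RNA sequencing of WT, P2- and P2+ cells but not of KO cells. Whether the KO libraries were made and sequenced with the others is not given there. A difference in run, if any, cannot be told apart from genotype in KO versus WT.

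The start regions of the members in which a searched motif was found are shown. No MYB motif was searched. RefSeq (build GRCm38.p6) gave a window for 8 of the 10 members, not for Myc and Mybl1. The motifs were searched on both strands in the 250 bases before each RefSeq start. They were the E-box CACGTG, bound by MYC with MAX and by their antagonists, the E2F-type sequence TTGGCGNGA, and TGTGGT, a form of the RUNX sequence. The E2F-type letters were chosen after the windows had been read. Bases that the gene annotation counts as transcribed were left off. The E2F-type motif, in capitals, stood in the windows of these members:

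Myb (chr10:21160985-21161234, minus strand, 250 bases): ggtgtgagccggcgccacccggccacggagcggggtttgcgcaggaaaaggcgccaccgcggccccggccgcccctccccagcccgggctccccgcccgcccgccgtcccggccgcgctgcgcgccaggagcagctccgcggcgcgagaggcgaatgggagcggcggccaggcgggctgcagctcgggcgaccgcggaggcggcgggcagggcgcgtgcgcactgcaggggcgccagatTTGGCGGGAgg
Mybl2 (chr2:163054385-163054634, plus strand, 250 bases): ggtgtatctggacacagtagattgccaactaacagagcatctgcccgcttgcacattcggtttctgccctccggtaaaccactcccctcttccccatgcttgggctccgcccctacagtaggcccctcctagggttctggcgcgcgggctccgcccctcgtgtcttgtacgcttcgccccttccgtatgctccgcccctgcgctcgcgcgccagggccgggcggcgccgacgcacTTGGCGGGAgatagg
Mycn (chr12:12941915-12942086, minus strand, 172 bases): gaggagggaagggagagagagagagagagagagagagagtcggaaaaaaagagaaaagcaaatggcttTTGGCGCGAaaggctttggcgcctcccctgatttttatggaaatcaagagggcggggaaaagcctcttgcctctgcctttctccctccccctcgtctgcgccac

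The motif began 11 bases before the RefSeq start in Myb, 15 bases before it in Mybl2 and 182 bases before it in Mycn. It was present in 0.444% of all 32851 windows. Since its letters were chosen after the windows had been read, that share cannot serve as a comparison for the members. The E-box, again in capitals, stood in the windows of a pair of antagonists:

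Mxd4 (chr5:34187721-34187960, minus strand, 240 bases): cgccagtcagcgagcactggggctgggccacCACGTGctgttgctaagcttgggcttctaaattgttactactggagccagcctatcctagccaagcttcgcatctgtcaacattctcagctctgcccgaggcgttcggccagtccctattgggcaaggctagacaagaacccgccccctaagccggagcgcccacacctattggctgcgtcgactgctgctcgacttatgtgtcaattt
Mnt (chr11:74830674-74830919, plus strand, 246 bases): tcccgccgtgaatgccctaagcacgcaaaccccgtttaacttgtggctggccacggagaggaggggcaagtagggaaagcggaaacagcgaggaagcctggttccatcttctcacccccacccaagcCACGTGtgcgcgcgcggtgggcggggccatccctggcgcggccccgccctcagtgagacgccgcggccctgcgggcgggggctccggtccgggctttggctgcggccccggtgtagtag

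CACGTG was present in 6.02% of all windows. TGTGGT was present in 14.0% of all windows and in none of the members' windows. Other forms of the RUNX sequence were not searched, so this count does not cover every possible RUNX site. These matches describe letters only, and no binding was measured.

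Myb, the founding member of its family (chr10:21124935-21160984, minus strand), was the most abundant member by counts. Its level was 1130, 1280 and 1080 CPM in WT replicates 1 to 3. It was 1514, 1614 and 1509 CPM in P2-. It was 672, 674 and 600 CPM in P2+ and 1342, 1411 and 1374 CPM in KO. The groups did not overlap, in the order P2-, KO, WT and P2+. Between the sorted fractions, Myb was 2.36-fold lower in P2+ than in P2- (log2 fold change -1.24, SE 0.07, adjusted p = 5.95e-06 by edgeR's quasi-likelihood test). Against WT it was 1.33-fold higher in P2- (log2 0.41, SE 0.07, adjusted p = 4.15e-03) and 1.79-fold lower in P2+ (log2 -0.84, SE 0.08, adjusted p = 8.52e-05). It was 1.18-fold higher in KO than in WT (log2 0.23, SE 0.07, adjusted p = 0.0250). The P2- call was lost with edgeR's exactTest (adjusted p = 0.0646). The KO call was lost without KO replicate 2 or 3 or without WT replicate 1 or 3 (log2 0.18 to 0.24, adjusted p from 0.0711 to 0.0987). The long non-coding gene Gm26577 overlaps Myb exons on the opposite strand, and whether strand was used in counting is not given in the sources used here.

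B-MYB, encoded by Mybl2 (chr2:163054687-163084688, plus strand), was the MYB relative with the next level. Its level was 27.9, 31.6 and 34.5 CPM in WT and 29.4, 26.4 and 25.05 CPM in P2-. It was 41.6, 39.3 and 39.4 CPM in P2+ and 31.9, 30.5 and 28.8 CPM in KO. All P2+ libraries were above all others, while WT, P2- and KO overlapped. Mybl2 was 1.499-fold higher in P2+ than in P2- (log2 0.58, SE 0.11, adjusted p = 2.63e-03). Against WT the P2+ value missed the threshold (log2 0.36, SE 0.11, adjusted p = 0.0527), and it passed in a fit of all 12 libraries (adjusted p = 0.0281) and with DESeq2 (adjusted p = 0.0451). The intervals of the other differences were -0.49 to 0.06 for P2- versus WT and -0.29 to 0.18 for KO versus WT on the log2 scale.

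A-MYB, encoded by Mybl1 (chr1:9667415-9700209, minus strand) and best known in germ cells, was the least abundant member. It was at 4.37, 4.73 and 4.08 CPM in WT, at 5.57, 3.84 and 4.66 CPM in P2-, at 7.54, 6.21 and 9.23 CPM in P2+ and at 6.11, 4.02 and 6.28 CPM in KO. The 3 P2+ libraries lay above those of WT and P2-, and the lowest of them fell within the KO range. Mybl1 was higher in P2+ than in P2- (log2 0.72, SE 0.24, adjusted p = 0.0451) and than in WT (log2 0.81, SE 0.24, adjusted p = 0.0432). Both calls were close to the threshold: 6 of 15 alternatives lost the former (among them P2+ replicate 1 or 3, or P2- replicate 2 or 3, left out) and 7 of 15 lost the latter (among them P2+ replicate 1 or 3 or any WT replicate left out), with adjusted p up to 0.158 and 0.149. With the replicate number as a block, which pairs the P2+ and P2- libraries, the former passed (log2 0.72, adjusted p = 0.0216). The latter did not (log2 0.79, adjusted p = 0.0738).

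**Figure D1:**
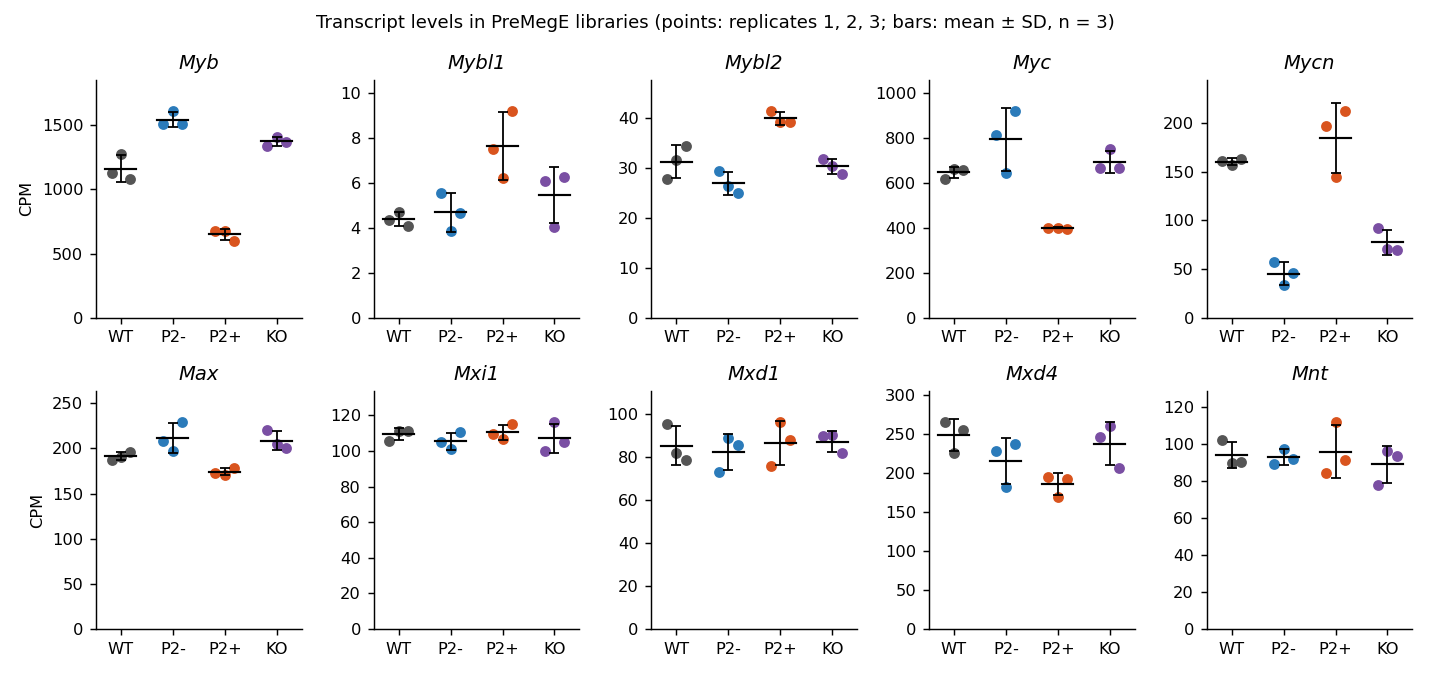
Levels of the 10 members in CPM (linear axis from 0) in the 3 libraries of WT, P2-, P2+ and KO. Points are replicates 1, 2 and 3 from left to right and bars give the mean ± SD. Myb and Myc were lowest in the P2+ libraries (600 to 674 CPM and 396 to 400 CPM), and Mycn was lowest in P2- (33.4 to 56.7 CPM).

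Myc, which drives growth and ribosome production (chr15:61985391-61990374, plus strand), stood at 616, 662 and 658 CPM in WT. It was at 813, 642 and 919 CPM in P2-, with the low value in replicate 2. It was at 400, 399 and 396 CPM in P2+ and at 664, 749 and 663 CPM in KO. The P2+ libraries were below every other library. The WT range ran into that of P2-, and the 3 KO values lay just above the WT values. Myc was 1.97-fold lower in P2+ than in P2- (log2 -0.98, SE 0.12, adjusted p = 3.01e-04) and 1.61-fold lower than in WT (log2 -0.69, SE 0.07, adjusted p = 8.38e-05). For P2- versus WT the test was not passed (log2 0.30, SE 0.11, adjusted p = 0.101), but without P2- replicate 2 it was (log2 0.42, adjusted p = 2.75e-03). It also passed without replicate 2 of both groups, without a filter on low counts, with DESeq2 and in the fit of all libraries. In KO versus WT the difference was 0.09 on the log2 scale (interval -0.04 to 0.23, adjusted p = 0.393).

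Mycn, the relative of Myc used in early progenitors and in embryonic tissue (chr12:12936093-12941914, minus strand), had the largest difference among the members in each comparison but P2+ versus WT. It was at 161, 157 and 163 CPM in WT. In P2- it was at 56.7, 33.4 and 45.4 CPM, and in P2+ at 196, 144 and 213 CPM. In KO it was at 92.5, 70.0 and 69.7 CPM. P2- lay below KO and KO below WT with no overlap, while the P2+ libraries lay on both sides of WT. Mycn was 4.11-fold higher in P2+ than in P2- (log2 2.04, SE 0.20, adjusted p = 8.93e-05). It was 3.54-fold lower in P2- than in WT (log2 -1.82, SE 0.15, adjusted p = 5.27e-05) and 2.08-fold lower in KO than in WT (log2 -1.06, SE 0.09, adjusted p = 3.63e-07). Those 3 differences passed in each of the alternatives run. For P2+ versus WT the difference missed the threshold (log2 0.20, SE 0.12, adjusted p = 0.294), and without P2+ replicate 2 it passed (log2 0.35, adjusted p = 5.97e-03).

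Max, the shared partner (chr12:76937269-76962201, minus strand), varied little. It was at 187, 191 and 196 CPM in WT, at 209, 197 and 229 CPM in P2-, at 173, 171 and 178 CPM in P2+ and at 220.01, 205 and 201 CPM in KO. The P2+ libraries were the lowest, and P2- and KO lay above WT and overlapped each other. Max was 1.204-fold lower in P2+ than in P2- (log2 -0.27, SE 0.08, adjusted p = 0.0237). That call was lost in 5 of 15 alternatives, when any P2+ replicate or P2- replicate 3 was left out and with edgeR's exactTest (log2 -0.28 to -0.21, adjusted p from 0.0556 to 0.107). It passed with the replicate number, which pairs these libraries, as a block (log2 -0.27, adjusted p = 1.44e-03). Intervals against WT were -0.03 to 0.32 for P2-, -0.29 to 0.03 for P2+ and -0.02 to 0.25 for KO on the log2 scale.

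Of the MAX-binding antagonists, Mxd4 (chr5:34173883-34187720, minus strand), a repressor of the MXD family, was the most abundant by counts. It stood at 266, 225 and 255 CPM in WT, at 229, 182 and 237 CPM in P2-, at 195, 169.9 and 193 CPM in P2+ and at 246, 261 and 207 CPM in KO. All P2+ values were below all WT values, and P2- overlapped both. Mxd4 was 1.33-fold lower in P2+ than in WT (log2 -0.42, SE 0.09, adjusted p = 0.0101), a call lost without WT replicate 1 (log2 -0.37, adjusted p = 0.0511). In P2+ versus P2- the difference of -0.20 did not pass (adjusted p = 0.176). With the replicate number as a block it did (log2 -0.20, adjusted p = 0.0108), and likewise without replicate 2 of P2- (log2 -0.31, adjusted p = 0.0290) or of both groups (log2 -0.25, adjusted p = 0.0310).

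Mxi1, Mxd1 and Mnt were not called in any comparison. Mxi1 (chr19:53310518-53375810, plus strand), also an MXD protein, ranged from 100.1 to 116 CPM over all 12 libraries. Mxd1 (chr6:86647042-86669161, minus strand), the founding antagonist, ranged from 72.9 to 96.0 CPM. Mnt (chr11:74830920-74845725, plus strand), the antagonist made by most dividing cells, ranged from 77.5 to 112 CPM. Every group of each of these genes overlapped every other. In P2+ versus P2- the log2 intervals were -0.08 to 0.24 for Mxi1, -0.17 to 0.34 for Mxd1 and -0.18 to 0.30 for Mnt, so larger differences in either direction lie outside them. Opposite-strand exons of Gm42846 overlap Mxd4 and those of Gm10197 overlap Mxi1.

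Counted together, P2+ exceeded P2- in 3 members and lay under it in 3, where 37.1% of 12836 genes were called (20.1% higher, 17% lower). Of these, Myb and Mycn changed at least 2-fold, as did 12.7% of all genes. The libraries of the fractions did not overlap in 6 members, against 49.9% of genes. In P2- versus WT 1 member was higher and 1 lower, in a comparison that called 16.5% of genes (6.85% higher, 9.6% lower). There 1 member changed at least 2-fold, as did 4.68% of genes, and 3 did not overlap, against 35.1%. In P2+ versus WT 1 was higher and 3 lower, where 16.5% were called (9.45% higher, 7.07% lower). No member changed at least 2-fold there, against 3.84% of genes, and 6 did not overlap, against 35.5%. In KO versus WT 1 was higher and 1 lower, where 14.9% were called (6.18% higher, 8.76% lower). There 1 member changed at least 2-fold, as did 3.41% of genes, and 4 did not overlap, against 31.7%. The counts for P2- and KO against WT were near these shares for a list of 10. The comparisons share libraries with each other and are not independent. In P2+ versus P2-, where the replicate numbers pair the libraries, a block on that number called 7 members (3 higher, 4 lower). That fit called 6514 of 12836 genes. Without the replicate 2 libraries, P2+ versus P2- gave a log2 fold change of -1.23 for Myb, -1.11 for Myc, 2.02 for Mycn, 0.59 for Mybl2 and -0.30 for Max, all called, and 0.73 for Mybl1, not called (adjusted p = 0.0589).

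**Figure D2:**
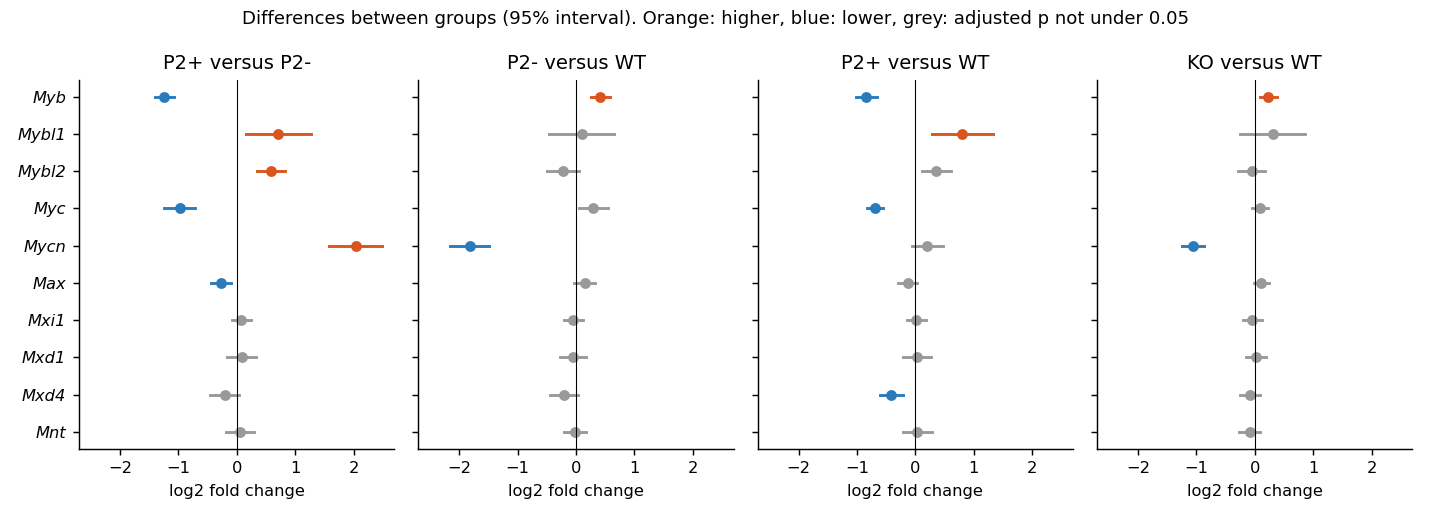
Log2 fold changes of the 10 members in the 4 comparisons, with the 95% interval of the edgeR fit (n = 3 per group). Orange marks a higher and blue a lower level at an adjusted p under 0.05, grey the rest. Mycn ran from -1.82 (P2- versus WT) to 2.04 (P2+ versus P2-), while Mxi1, Mxd1 and Mnt stayed near 0 in each panel.

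To set genes against each other, levels were divided by length, as RPKM (CPM per kilobase of exon). Over the union of exons, WT held 237 ± 9.38 RPKM of Myc, 130.2 ± 11.6 of Myb, 53.2 ± 1.25 of Max and 48.7 ± 0.961 of Mycn (SD, n = 3). Myc therefore stood above Myb on this scale, but with the longest transcript in place of all exons Myb (315 RPKM) stood above Myc (276 RPKM), so their order rests on the length used. Among antagonists in WT, Mxd4 held 29.3 ± 2.46 RPKM, Mnt 20.3 ± 1.54, Mxi1 16.0 ± 0.482 and Mxd1 12.0 ± 1.25. Mybl2 held 6.77 ± 0.714 and Mybl1 0.813 ± 0.0603 RPKM.

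The make-up of the MYC pair differed between groups. Mycn was 17.8%, 16.3% and 17.0% of the summed Myc and Mycn RPKM in WT. In P2- it was 5.44%, 4.12% and 3.92%. In P2+ it was 28.8%, 23.0% and 30.7%, and in KO 10.3%, 7.16% and 7.98%. The groups did not overlap, in the order P2+, WT, KO and P2-. Without replicate 2 the P2+ mean was 29.8%, and leaving out any single library kept the P2- mean between 4.02% and 4.78%. Each of the 4 comparisons gave p = 0.1 in a two-sided exact permutation test, the smallest that 3 against 3 allows. The antagonists Mxd1, Mxd4, Mxi1 and Mnt together came to 0.351 ± 0.0294 of the summed Myc and Mycn RPKM in P2+, against 0.242 ± 0.0363 in P2-, 0.272 ± 0.0237 in WT and 0.270 ± 0.00295 in KO (SD, n = 3). The P2+ libraries lay above all others (exact permutation p = 0.1 against P2- and against WT), and the KO mean differed from WT by -0.00156. Replicate 2 was the highest library of both P2+ and P2-, and without it the means were 0.335 and 0.221. With the longest transcript these ratios were higher (0.425, 0.301, 0.341 and 0.340 in that order), and P2+ was again the highest. No antagonist was called higher in P2+, while Myc over all exons held 147 RPKM there against 291 in P2- and 237 in WT. The Mycn share was higher in P2+ than in WT although Mycn itself was not called there (adjusted p = 0.294 by edgeR).

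**Figure D3:**
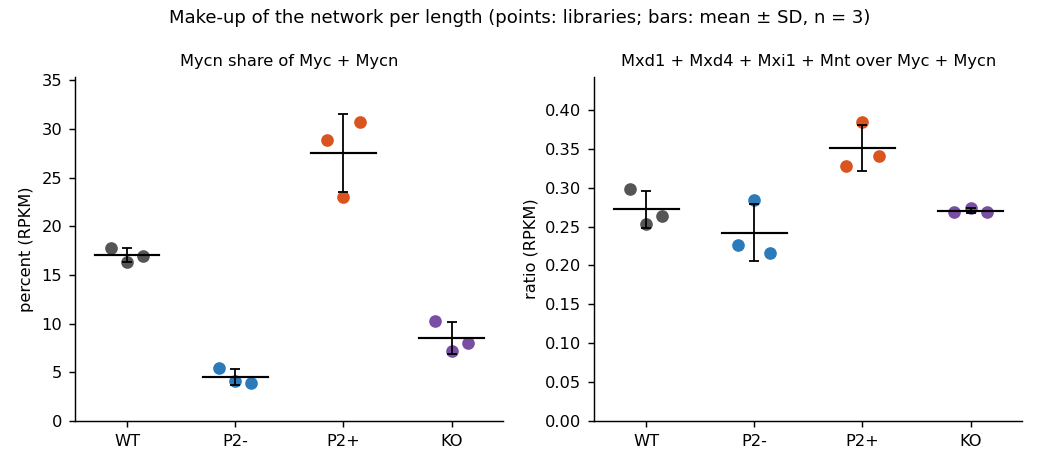
Left, the share of Mycn in the summed Myc and Mycn RPKM (percent) and right, the ratio of summed Mxd1, Mxd4, Mxi1 and Mnt RPKM to summed Myc and Mycn RPKM, by library (points) with mean ± SD (bars), both axes from 0. The Mycn share ran from 3.92% in a P2- library to 30.7% in a P2+ library, and the antagonist ratio was highest in P2+ (0.329 to 0.385).

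The place of WT and KO between the sorted fractions was read as a percentage of the way from the P2- mean to the P2+ mean, on the CPM scale. Over the 4762 genes called between the fractions the median place was 46.9% in WT (quartiles 31.1% and 64.9%) and 18.5% in KO (quartiles 3.81% and 33.8%). Myb was at 42.7% ± 11.6 in WT and 19.0% ± 3.87 in KO, and Myc at 37.2% ± 6.48 and 25.3% ± 12.5 (SD, n = 3). Mycn was at 82.7% ± 2.27 in WT and 23.1% ± 9.40 in KO. Of the called genes, 89.6% lay below the WT place of Mycn, and 58.9% below its KO place. Mybl2 was at 33.4% ± 25.2 in WT and 25.8% ± 11.9 in KO, within 1 SD of each other. On a log2 scale Mycn was at 91.1% in WT and 39.0% in KO, and without the replicate 2 libraries it was at 72.4% in WT. Max was at 53.8% ± 12.0 in WT and at 7.79% ± 27.2 in KO, and Mybl1 at 26.2% ± 42.4 in KO. The WT place of Mybl1 was -10.05%, on the far side of the P2- mean, with its 3 libraries between -20.6% and 1.32% and 2.96% of called genes below it, and it was 4.16% without P2- replicate 1, -28.4% without P2- replicate 2 and -27.3% without the replicate 2 libraries. Leaving out a library moved several KO places: that of Max ran from -20.7% (without P2- replicate 3) to 23.1% (without KO replicate 1), and that of Mybl1 ran from 12.6% (without KO replicate 3) to 50.7% (without KO replicate 2). The KO place of Myc was 10.8% without P2- replicate 3 and 43.3% without the replicate 2 libraries, and the WT place of Mybl2 was 21.3% without WT replicate 3. The places of WT and KO use the same sorted libraries and are a description, with no test.

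**Figure D4:**
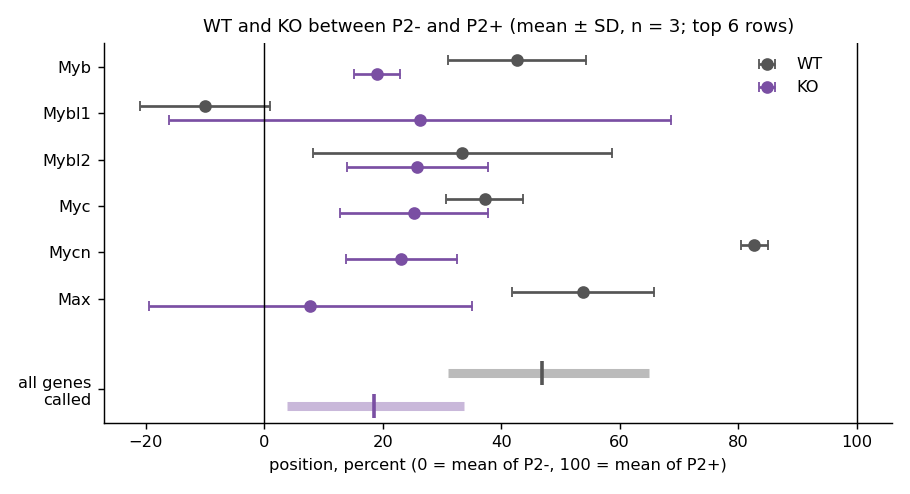
Place of the WT (grey) and KO (purple) libraries between the P2- mean and the P2+ mean, in percent of that distance (linear axis), for the 6 members called between the fractions (points, mean ± SD, n = 3) and for all 4762 genes called (tick, median, band, quartiles). Mycn was at 82.7% in WT and at 23.1% in KO, against medians of 46.9% and 18.5% over the called genes.

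The genes whose log2 CPM ran most like each member over the 12 libraries were also noted, as a description in which all points share the 4 groups. For Myb they were Nfia (r = 0.992), Tfe3 (r = 0.991) and Necap2 (r = 0.989) out of 10003 genes. For Myc they were Ctse, Cat and Dpy19l1 (r = 0.983 for each). For Mycn they included Smim14 and Cnn2 (r = 0.976 for each). Mybl2 ran with Gm15697 (r = 0.970), Kremen1 (r = 0.967) and the mitotic kinase gene Plk1 (r = 0.964). Max ran with Zfp553, Arel1 and Ddx55 (r from 0.941 to 0.945), Mxd4 with Kxd1, Zkscan14 and Fam78a (r from 0.904 to 0.919) and Mybl1 with Fbxo42, Reep4 and Tst (r from 0.884 to 0.920). Among the members, Myb and Myc ran together (r = 0.933), as did Myc and Max (r = 0.901), while Mybl2 ran against Myb (r = -0.905) and Myc (r = -0.864), and Mycn against Myb (r = -0.803).

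Known MYC targets, genes of ribosome assembly, polyamine synthesis and growth, were counted on a list of 23. In P2+ versus P2-, 15 were lower and 1 higher, where 17% of all genes were lower and 20.1% higher, with a median log2 fold change of -0.50 against -0.02 over all genes. Among the listed genes at 10 CPM or more in P2- whose libraries did not overlap, the largest falls were those of Mrto4 (log2 -0.95, adjusted p = 6.24e-03), Gnl3 (log2 -0.86, adjusted p = 3.63e-03), Hspd1 (log2 -0.80, adjusted p = 1.71e-04) and Ppan (log2 -0.71, adjusted p = 1.88e-03). Mrto4 and Ppan act in assembly of the large ribosomal subunit, Gnl3 is a nucleolar GTPase and Hspd1 a mitochondrial chaperone. The gene that was higher was Tert, the catalytic subunit of telomerase (log2 1.21, adjusted p = 0.0404), named after its value was seen, and it was no longer called when any single P2+ library, or P2- replicate 1 or 2, was left out. Without the replicate 2 libraries 14 were lower and none higher. In P2- versus WT 12 were higher and none lower (median 0.34), beside 6.85% of all genes higher, with Mrto4, Odc1, Gnl3 and Srm, the last and Odc1 being enzymes of polyamine synthesis, at log2 values from 0.47 to 0.59. That count fell to 3 without WT replicate 1, to 5 without WT replicate 2 and to 7 with edgeR's exactTest. In P2+ versus WT 4 were lower and none higher (median -0.18), a number of calls near the share of all genes called in either direction (16.5%, with 7.07% lower), and leaving out 1 library gave from 1 to 8 (8 without P2+ replicate 2, 1 without P2+ replicate 3, WT replicate 2 or WT replicate 3, and 2 without P2+ replicate 1 or with the exactTest). In KO versus WT 4 were higher and none lower (median 0.14), namely Srm, Odc1, Bop1 and Gnl3 at log2 0.24 to 0.33, which was again near the share called in either direction (14.9%, with 6.18% higher), and 1 in the fit of all 12 libraries. Without KO replicate 1 or 3 or WT replicate 2 it was 2, as it was with library totals alone.

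Targets of B-MYB with MuvB, genes of the G2 phase and mitosis, were counted on a list of 15. All 15 were higher in P2+ than in P2- (median log2 0.90), beside 20.1% of all genes, in each alternative run. Ccna2 (log2 1.16, adjusted p = 1.67e-04), a cyclin, Ube2c (log2 1.14, adjusted p = 9.33e-04), which marks proteins for destruction at anaphase, Foxm1 (log2 1.12, adjusted p = 2.43e-05), the transcription factor of the G2 phase, and Plk1 (log2 1.06, adjusted p = 2.20e-04) differed the most. In P2+ versus WT 14 were higher (median 0.52), beside 9.45% of all genes, and 8 without P2+ replicate 1 or WT replicate 1 or 2. In P2- versus WT 9 were lower (median -0.43), beside 9.6% of all genes, among them Plk1 (log2 -0.53), Ccnb2 (log2 -0.53), Birc5 (log2 -0.52) and Foxm1 (log2 -0.52). That count fell to 3 without WT replicate 2 or 3 and to 4 without replicate 2 of both groups. In KO versus WT 1 was lower, Cdk1 (log2 -0.36, adjusted p = 0.0342), and none was called when KO replicate 1, 2 or 3 or WT replicate 2 or 3 was left out or all 12 libraries were fitted together. Of the 5 MuvB core genes, Lin9 was higher in P2+ than in P2- (log2 0.51, adjusted p = 7.57e-03), and no other call was made in any comparison. The paper reports that more P2+ than P2- PreMegEs were in the DNA synthesis phase. The part of the share of dividing cells in these differences was not tested.

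Known MYB targets, a list of 13 that holds several lineage genes, moved in both directions. In P2+ versus P2-, 6 of 12 tested were higher and 3 lower (median log2 0.39), where 37.1% of all genes were called, and without the replicate 2 libraries 6 were higher and 2 lower. Mpo (log2 3.24), a granule enzyme of neutrophils, Cd34 (log2 2.73), a surface protein of progenitors, and Prtn3 (log2 1.58), another granule enzyme, were higher, while Klf1 (log2 -2.71), the erythroid transcription factor, was lower. Mpo and Klf1 also stand on the neutrophil and erythroid marker lists. In P2- versus WT 1 was higher and 6 lower (median -0.65), in P2+ versus WT 3 were higher and 2 lower of 13 (median 0.37), and in KO versus WT 2 were higher and 6 lower (median -0.54), beside 16.5%, 16.5% and 14.9% of all genes called. Without the replicate 2 libraries the P2- comparison had 2 higher and 6 lower and the P2+ comparison the same counts as with them. In KO versus WT, Mpo was lower (log2 -1.58, and -0.94 without WT replicate 1). Sox4 (log2 -0.86), a progenitor transcription factor, and Cd34 (log2 -0.81) were also lower there, and Klf1 (log2 0.69) was higher. In the fit of all 12 libraries KO versus WT had 1 higher and 4 lower.

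**Figure D5:**
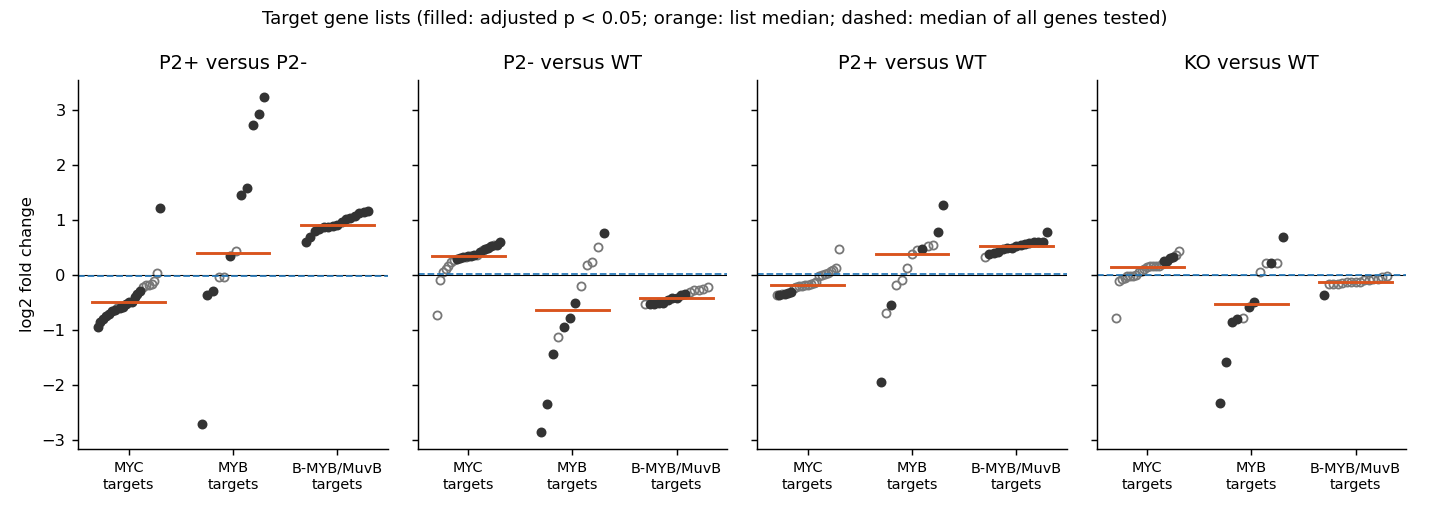
Log2 fold changes of the listed targets of MYC, MYB and B-MYB with MuvB in the 4 comparisons. Each point is a gene, sorted by value (filled, adjusted p under 0.05), the orange line is the list's median and the dashed line the median of all genes tested. In P2+ versus P2- all 15 B-MYB and MuvB targets were above 0 (median 0.90) and 15 of 23 MYC targets were called lower (median -0.50).

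Other genes of the network were looked at in the same fits. Of 4 other MAX-network genes tested, Mxd3, an antagonist made in dividing cells, was higher in P2+ than in P2- (12.5 against 4.47 CPM, log2 1.501, adjusted p = 8.35e-04) and than in WT (log2 0.71, adjusted p = 0.0271), the latter lost without replicate 1 or 3 of P2+ or of WT. Mlx, the MAX-like partner, was lower in P2+ than in P2- (log2 -0.48, adjusted p = 7.49e-03). Of 21 cofactors and regulators of MYC and MYB, P2+ had 2 above and 1 below P2-, a smaller share than the 37.1% called over all genes, and 8 were called with the replicate block, 5 without P2+ replicate 2 and 5 without replicate 2 of both groups. Hipk2, a kinase that acts on MYB, was at 149.6 CPM in P2+, 103 in WT and 66.4 in P2- (log2 1.18 between the fractions, adjusted p = 2.66e-04). Mybbp1a, a MYB-binding nucleolar protein, was at 269.6, 325 and 411 CPM in the same order (log2 -0.60, adjusted p = 2.56e-04). In P2- versus WT 1 was higher and 1 lower, in P2+ versus WT 2 were higher and 2 lower, among them Pim1, a kinase that acts on MYC (log2 0.96, adjusted p = 0.0180), and in KO versus WT Kmt2a, a partner of MENIN, was higher (log2 0.23, adjusted p = 0.0222). Over all genes 16.5%, 16.5% and 14.9% were called in these comparisons. These small counts changed with the library left out: from 1 to 4 in P2- versus WT (4 without P2- replicate 2, and 1 without P2- replicate 3 or WT replicate 1 or 2), 1 without any WT replicate and 2 without P2+ replicate 3 in P2+ versus WT, and 0 in KO versus WT without KO replicate 2 or 3 or WT replicate 1. Pim1 was at 186, 377 and 192 CPM in P2+ and at 136, 119 and 135 CPM in WT, with replicate 2 of P2+ apart from the others. Without P2+ replicate 2 it was at log2 0.54 (adjusted p = 6.28e-04), without replicate 2 of both groups at 0.48, and the call was lost when any single WT library was left out (adjusted p up to 0.0769). Of 4 chromosomal neighbours of the members tested, Ahi1, next to Myb, was lower in KO than in WT (5.86 against 12.1 CPM, log2 -1.05, adjusted p = 8.07e-04). Pvt1, the non-coding gene beside Myc, was named after its values were seen. It was at 3.81, 3.46 and 4.44 CPM in WT, at 5.89, 10.7 and 7.90 CPM in P2-, at 3.52, 1.52 and 0.534 CPM in P2+ and at 4.63, 5.05 and 5.55 CPM in KO. Pvt1 was lower in P2+ than in P2- (log2 -2.13, adjusted p = 0.0131) and higher in P2- than in WT (log2 1.06, adjusted p = 0.0235), from counts of 7 to 112 a library, the latter call lost without P2- replicate 2 or 3 or WT replicate 1 or 2.

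Markers of the lineages that PreMegE can give, and of other cells, were summed in each library. The 6 erythroid markers summed to 810 to 843 CPM in WT, 1201 to 1412 in P2-, 185 to 237 in P2+ and 1114 to 1224 in KO. The 6 megakaryocyte markers summed to 372 to 434, 79.0 to 114, 549.9 to 823 and 228 to 256 CPM in the same order. Among them Ppbp, a platelet chemokine, went the other way, lower in P2+ than in WT (3.69 to 4.49 against 8.52 to 12.1 CPM, log2 -1.27, adjusted p = 4.72e-03) and higher in KO (11.03 to 21.0 CPM, log2 0.70, adjusted p = 0.0374), and Pf4, another, was at 71.9 CPM in P2+ and 73.5 CPM in WT. The 8 neutrophil and monocyte markers summed to 152 to 264, 46.3 to 102, 267 to 380.2 and 65.2 to 109 CPM, with Ly6g at 0 in every WT and KO library. The 8 lymphoid markers summed to 45.4 to 61.6, 17.4 to 27.2, 42.2 to 108 and 38.7 to 50.4 CPM. Of 6 tested, 4 were called higher in P2+ than in P2-, beside 20.1% of all genes. Against WT 4 were called lower in P2- and 2 in KO, beside 9.6% and 8.76% of all genes, and none was called in P2+. Cd3d was at 0 in WT, P2- and KO and Cd3e at 0 in P2- and P2+. The 6 mast cell and basophil markers summed to 26.9 to 46.9, 24.5 to 28.3, 84.3 to 137 and 47.3 to 64.2 CPM, with Cma1 at 0 in every library. No mast cell or basophil marker was called in P2- versus WT, and 2 were higher in KO than in WT. The 6 PreMegE markers summed to 2731 to 3288 CPM over all libraries. P2- (2731 to 2944 CPM) lay below WT (2983 to 3177 CPM) and KO (2981 to 3169 CPM), and P2+ (2794 to 3288 CPM) overlapped all 3. The 12 immediate early genes summed to 206 to 1268 CPM in WT and to 184 to 579 CPM in KO, and 2 of 10 tested were lower in KO than in WT. These were Egr1 (log2 -1.33, adjusted p = 5.93e-03), at 98.1 CPM in WT replicate 3 against 27.0 and 42.4 CPM in the other WT libraries and 18.3 to 24.8 CPM in KO, and Ier3 (log2 -0.52, adjusted p = 0.0471). Without WT replicate 3, Mycn in KO versus WT was at log2 -1.05, still called, and Myb at 0.18, no longer called (adjusted p = 0.0797). The part of these gene groups in the members' differences was not tested. In these bulk libraries fewer cells of a type and less RNA per cell cannot be told apart.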

How the data were processed

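Counts per gene were deposited by the authors in 1 table for all 12 libraries. Per the paper's methods, strand-specific polyadenylated libraries were aligned with Bowtie2 to GRCm38 and counted with featureCounts on an Ensembl annotation. The use of strand and the handling of reads with several matches are not given in the sources used here. The deposited counts are whole numbers and not normalized. Here they were scaled by TMM and tested with edgeR 4.0.16 (R 4.3.3, quasi-likelihood F-test) on the 6 libraries of a comparison, keeping genes that reached 1 CPM in 3 libraries or more, with Benjamini-Hochberg adjustment over all genes tested. A gene was called at an adjusted p under 0.05. Alternatives were DESeq2 1.42.0, other scalings, filters, fits and libraries left out. The script was tested on simulated counts. Log2 CPM for likeness used a prior count of 2. RPKM used GENCODE lengths on GRCm38. Detection was set at 3 counts, which covers counting error only. All members were named in every comparison. From each other list except the cell markers up to 4 genes were named, those with the largest change among genes called. They were at 10 CPM or more in the higher group and without overlap. Cell markers were summed, and those named were picked after their values were seen. The 3 genes most like each called member were named too, except 1 that is not reported here. The members and lists were chosen with earlier results of these data known. Replicate numbers paired the P2+ and P2- libraries: deviations of same-numbered libraries from their group means correlated at 0.386, 0.572 and 0.405.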

Additional observations from a re-analysis of the deposited data

How the results depend on the processing

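Of the members' calls, those of Myb, Mybl2, Myc and Mycn in P2+ versus P2-, of Mycn in P2- and in KO versus WT, and of Myb and Myc in P2+ versus WT passed the adjusted p in each refit, and no called difference changed direction. Over all refits 184 of 208 values of called differences passed and 24 did not. With a minimum of 2-fold added, which Mybl2 and Myc in P2+ versus P2- and Myb and Myc in P2+ versus WT did not reach, 1626 genes and 2 members were called in P2+ versus P2-, 597 and 1 in P2- versus WT, 497 and 0 in P2+ versus WT and 436 and 1 in KO versus WT. The exactTest called 1 member in P2- versus WT, where Myb was lost (adjusted p = 0.0646). With a library left out, the genes called ran from 3573 to 4328 in P2+ versus P2-, from 1068 to 2189 in P2- versus WT, from 1213 to 2447 in P2+ versus WT and from 1194 to 1648 in KO versus WT, and the members called from 4 to 6, 2 to 3, 2 to 5 and 1 to 2. These fits have fewer samples.

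Differences near 0 that changed sign were all uncalled. Without the replicate 2 libraries Mnt was at -0.027 in P2+ versus P2-, and Mxd1 at -0.093 and Mnt at -0.13 in P2+ versus WT. With a library left out, Mnt ran from -0.057 to 0.15 in P2+ versus P2-. In P2- versus WT Mybl1 ran from -0.038 to 0.21, Mxd1 from -0.11 to 0.032 and Mnt from -0.063 to 0.039. In P2+ versus WT Mxi1 ran from -0.019 to 0.039, Mxd1 from -0.061 to 0.12 and Mnt from -0.099 to 0.12. In KO versus WT Mybl2 ran from -0.14 to 0.021, Mxi1 from -0.10 to 0.014, Mxd1 from -0.035 to 0.11, Mxd4 from -0.15 to 0.018 and Mnt from -0.15 to 0.0084 (all log2). The cause was not tested.

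With the replicate number as a block, 6514 genes and 7 members were called in P2+ versus P2-, where the numbers pair the libraries. In the other comparisons the libraries share only a number: the block gave 1469 genes and 2 members in P2- versus WT, 1901 and 3 in P2+ versus WT (Mybl1 lost, adjusted p = 0.0738) and 2091 and 2 in KO versus WT, and it changed no other call of a member. Alternatives for the target lists, the ratios and the places between the fractions were chosen after seeing the data. At 3.84 to 9.23 CPM, the counts of Mybl1 limit what can be shown for that gene.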
